A study of Mus musculus with 7 samples.

Results

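The comparison set 1 library titled pInv, from embryoid bodies in which the promoter of the long non-coding RNA gene Meteor was inverted, against 2 libraries titled pKO1 and pKO2, from embryoid bodies in which that promoter was deleted. These 3 libraries were chosen by title from the 7 of the series. All 7 came from the R1 mouse embryonic stem cell line, and polyadenylated RNA was taken on day 4 of differentiation. The cells had been freed of feeder cells on gelatin for 20 min, grown without Lif in serum-based medium as hanging drops of 500 cells, and moved to suspension after that. Beside them stand WT1 and WT2 (wild type), Ctrl (an empty vector) and KD (a CRISPR knockdown of Meteor, for which the labels name Cas9 in 1 place and dCas9 in another). The genotype field contradicts the titles of 5 libraries: it gives the promoter knockout for WT1 and WT2, the inversion for pKO1, and wild type for pKO2 and pInv. Every direction below rests on the titles. The number of clones behind a title was not stated in the labels.

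An inverted promoter keeps its sequence but turns its direction of transcription, whereas a deleted promoter is gone, so the pair of alleles separates the presence of the element from transcription through the gene. Embryoid bodies on day 4 pass through a stage like gastrulation, in which epithelial epiblast cells enter the primitive streak. There they lose E-cadherin, gain N-cadherin, vimentin and fibronectin, and leave as mesoderm or endoderm. Eomes, the transcription factor next to Meteor, acts in that step, together with NODAL signalling. Cadherins hold neighbouring cells together, integrins tie cells to the matrix, and both connect to actin inside the cell.

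Totals ran from 1898350 to 2564478 expected counts per library, of which the 45S ribosomal RNA precursor took from 12.9% in pInv to 24.1% in WT2. Levels are CPM, counts relative to the TMM-scaled library size, and a count of 0 allowed up to 1.43 CPM in pKO1, 1.23 in pKO2 and 1.27 in pInv, a floor of 3 counts that covers counting error only. Primitive streak genes summed to 1956 to 4902 CPM and pluripotency genes to 2545 to 3717 CPM in the 7 libraries, with pInv at 2891 and 3412, so markers of the labelled cells were present. Fibroblast and feeder markers summed to 29.4 to 39.0 CPM, with Fap at 0 in all 7. Macrophage markers summed to 74.0 CPM in pKO1, 96.4 in pKO2 and 81.1 in pInv, and to 364 in KD. Within that list Adgre1, Csf1r and Cd14 were at 0 in pInv and both pKO libraries, so single zeros do not speak for the list. WT2 stood apart, with the lowest streak sum of the 7. Meteor itself was not analysed here, for want of a feature of that name, so no target level checks the titles.

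Eomes itself lay between the deletion libraries, at 337 CPM in pKO1, 445 in pKO2 and 390.0 in pInv. It ran from 312 CPM in WT2 to 459 in WT1, with Ctrl at 421 and KD at 399. The log2 difference of pInv from pKO was −0.0040 (SE 0.37), and pInv was above pKO1 and below pKO2.

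No gene passed an adjusted p under 0.05 for pInv against pKO among the 10265 tested by edgeR's quasi-likelihood method, with p-values adjusted after Benjamini and Hochberg (0% called in each direction, smallest adjusted p = 1). At an unadjusted p under 0.05, 78 genes were higher in pInv (0.76%) and 75 lower (0.731%). DESeq2 called 0 as well, as did limma after voom and limma fitted to log2 TPM with a pseudocount of 1. The edgeR test called 8 genes without the low-count filter, 2 without pKO1 and 7 without pKO2. Since pInv is 1 library, the test borrows the spread of the WT and pKO pairs, on 2 residual degrees of freedom. Nothing in the labels says that the libraries of a title came from separate cultures, so these p-values measure only the spread between libraries. What follows therefore describes where the pInv library lay relative to both pKO libraries, and no difference below is called.

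pInv lay above both deletion libraries for 3509 of the 10265 genes (34.2%) and below both for 3238 (31.5%). The counts for gene lists further down are to be read against these shares. The median log2 difference over all genes was 0.00. Among the 4929 genes at 20 CPM or more in pInv or in the pKO mean, 1915 (38.9%) lay above both and 1476 (29.9%) below both. The deletion libraries were themselves far apart: pKO2 was 2-fold or more above pKO1 for 33 of these genes and below it for 168, with an SD of the log2 difference of 0.55. pInv differed 2-fold from pKO1 for fewer genes, 52 above and 34 below (SD 0.45), and from pKO2 for more, 222 above and 87 below (SD 0.54). By these counts pInv was nearer to pKO1 than pKO2 was. Only 16 genes lay 2-fold or more above both (0.325%) and 20 below both (0.406%). All 16 were also above the other 4 libraries. Of the 20, 13 were below all 6 others, and 7 fell within the range of WT, Ctrl and KD. Leaving out pKO1 raised these counts to 211 and 119, and leaving out pKO2 to 52 and 46, since a single library then sets the edge.

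**Figure D1:**
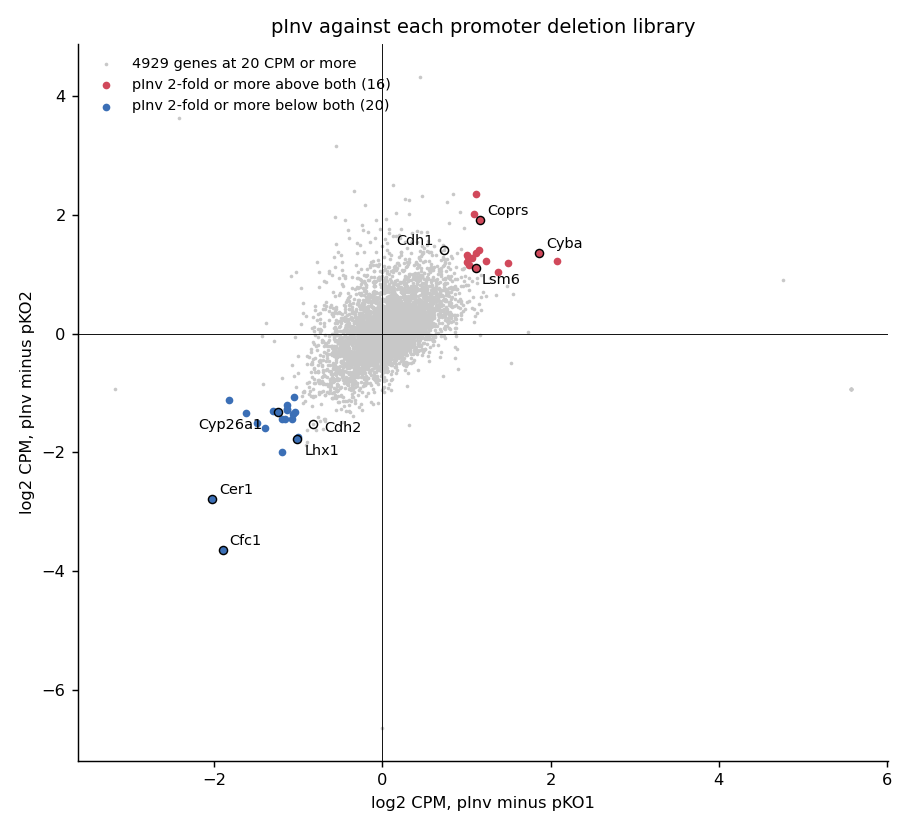
Log2 CPM difference of pInv from pKO1 (x axis) and from pKO2 (y axis) for 4929 genes at 20 CPM or more. Red points are the 16 genes 2-fold or more above both libraries, blue points the 20 below both, and circles mark genes named in the text; Cer1 and Cfc1 lie farthest below.

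E-cadherin (Cdh1, NCBI gene 12550), the adhesion molecule of epithelia and of stem cells, was highest in pInv. It stood at 827 CPM in pKO1, 518 in pKO2 and 1372 in pInv. It was at 594 CPM in WT1, 577 in WT2, 475 in Ctrl and 599 in KD, so pInv exceeded all 6 other libraries. The log2 difference from pKO was 1.03 (SE 0.36), with an unadjusted p of 0.021 and an adjusted p (edgeR, Benjamini-Hochberg) of 1.

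N-cadherin (Cdh2), which replaces E-cadherin in cells that leave the epithelium, went the other way. It was at 89.3 CPM in pKO1, 146 in pKO2 and 50.1 in pInv, a log2 difference of −1.22 (SE 0.72). WT2 was lower still at 23.4 CPM, while WT1 (94.8), Ctrl (109) and KD (211) were higher. The Cdh1 to Cdh2 ratio of counts, which scaling does not touch, was 27.4 in pInv, 9.26 in pKO1 and 3.55 in pKO2. It was 24.6 in WT2, 6.26 in WT1, 4.37 in Ctrl and 2.84 in KD. On this ratio pInv and WT2 stood together, far from the other 5. The libraries are bulk RNA, so fewer cells of a type and less RNA per cell cannot be told apart here or below.

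The wider cadherin and catenin list did not follow Cdh1: 7 of its 22 tested members lay above both deletion libraries and 7 below, close to the 34.2% and 31.5% of all genes. Its median log2 difference was −0.14, against 0.00 for all genes, and 0.019 without pKO1. Below both lay Cdh11, a cadherin of mesenchyme, at 17.2 CPM in pKO1, 19.3 in pKO2 and 10.2 in pInv. The protocadherin Pcdh7 was at 33.0, 61.1 and 24.2 CPM in the same order. Celsr3, a planar polarity cadherin, lay above both at 2.39, 4.10 and 7.21 CPM. In each of these, WT2 was the lowest library.

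**Figure D2:**
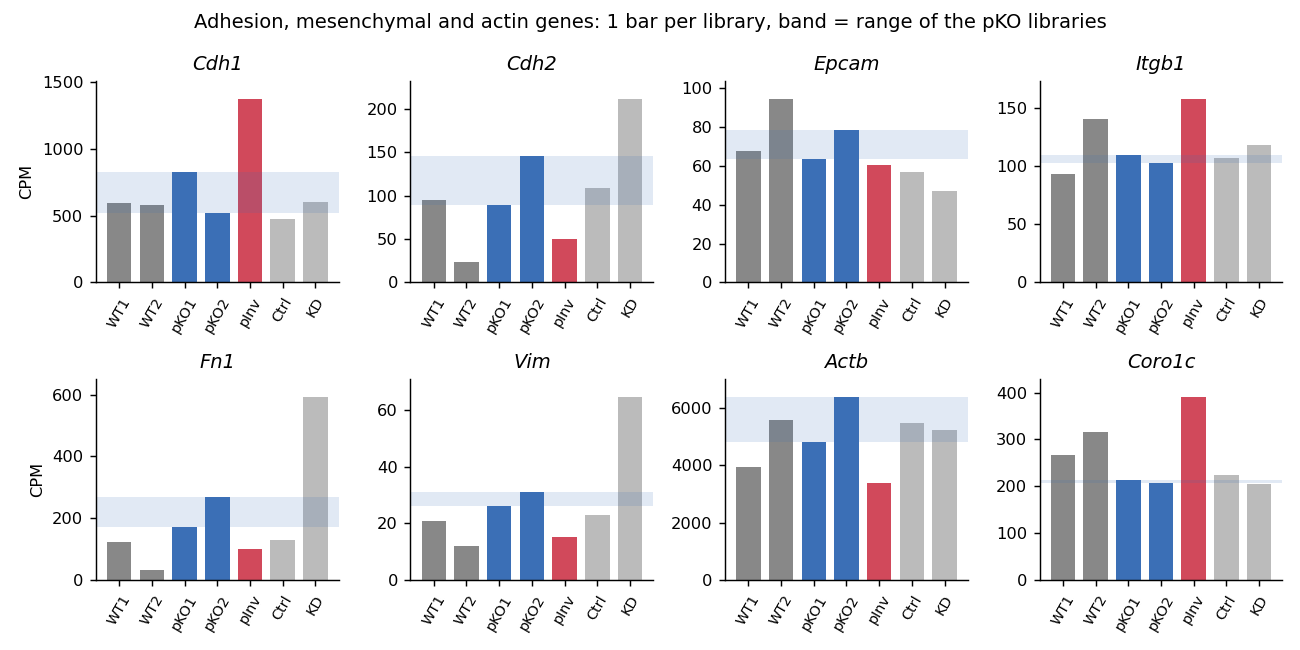
CPM of 8 adhesion, mesenchymal and actin genes, 1 bar per library, with no error bars because each bar is 1 library; the blue band spans pKO1 to pKO2. Cdh1, Itgb1 and Coro1c are highest in pInv, Actb is lowest in pInv, and for Cdh2, Fn1 and Vim only WT2 is below pInv.

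Genes of epithelial junctions split evenly. Of 38 tested, 13 lay above both deletion libraries and 12 below, with a median of −0.02. Among those above, Llgl2, a polarity protein of the basolateral membrane, was at 11.9 CPM in pKO1, 18.5 in pKO2 and 29.3 in pInv. The tight junction gene Cldn3 was at 5.26, 5.74 and 11 CPM, with WT2 next at 10.8. Marveld3, another tight junction gene, was at 8.12, 2.05 and 12.7 CPM, and Rab25, a small GTPase of epithelial membrane traffic, at 5.26, 3.69 and 9.34. Epcam, an epithelial and stem cell adhesion molecule, did not share this position, at 63.5 CPM in pKO1, 78.4 in pKO2 and 60.3 in pInv. Cxadr, a junction receptor, was lower at 13.9, 10.7 and 7.64 CPM. The position of Cdh1 was thus not that of epithelial genes in general.

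Cell-matrix adhesion genes lay below somewhat more often than genes at large, by a small median shift. Of 26 integrin and focal adhesion genes, 11 (42.3%) were below both deletion libraries and 5 above, against 31.5% and 34.2% of all genes. The median was −0.09 (−0.034 without pKO1, −0.20 without pKO2), against 0.00 for all genes. Whether the list differs from genes at large was not tested. Itgb1, the common beta chain of most integrins, was an exception at 110 CPM in pKO1, 103 in pKO2 and 158 in pInv, the highest of the 7. The tyrosine kinase Src was at 16.7, 9.03 and 2.97 CPM, the lowest of the 7, where the other 4 libraries held 11.4 to 14.7. Its log2 difference of −1.82 (SE 0.59) had an unadjusted p of 0.015 and an adjusted p (edgeR, Benjamini-Hochberg) of 1. Parvb and Ilk, which join integrins to actin, were at 5.26, 8.21 and 1.70 CPM and at 15.8, 14.8 and 8.91 CPM. The alpha chain Itgav was at 9.08, 6.98 and 3.82 CPM and the adaptor Pxn at 3.34, 7.39 and 2.12. Both were lowest in pInv. The integrin chains thus stood on both sides, and the kinases and adaptors named here below.

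Actin genes showed the same mixed picture, with 15 of 51 above, 17 below (33.3%) and a median of −0.10, which was 0.015 without pKO1. Actb, the main cytoplasmic actin, was at 4811 CPM in pKO1, 6365 in pKO2 and 3393 in pInv, below all 6 others, of which WT1 was nearest at 3929. Destrin (Dstn), which severs filaments, was likewise lowest in pInv at 389 CPM against 558 and 712. Arpc2, a subunit of the branching complex Arp2/3, was at 150 CPM in pKO1, 155 in pKO2 and 108 in pInv. Another subunit, Arpc1b, was at 118, 80.4 and 154 CPM, so subunits of 1 complex stood on opposite sides. Coro1c, a coronin of the cell cortex, was at 214 CPM in pKO1, 207 in pKO2 and 390 in pInv, above all 6 others (205 to 316). Its log2 difference was 0.89 (SE 0.30).

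Mesenchymal genes were below both deletion libraries more often than genes at large. In the list of mesenchymal effectors 16 of 35 (45.7%) were below and 9 above, with a median of −0.21, which was −0.33 without pKO1. In the shorter epithelial-mesenchymal transition list 8 of 10 were below and 1 above, with a median of −0.61. These lists share members, and the transition list was known to be low here from earlier work on these files, so it adds no independent support. The median of the shorter list was −0.58 against pKO1 and −0.65 against pKO2, so its sign was the same against either. Both values use the 1 pInv library and are not separate checks.

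The matrix protein fibronectin (Fn1) was at 173 CPM in pKO1, 270 in pKO2 and 102 in pInv (log2 difference −1.11, SE 0.70). The intermediate filament vimentin (Vim) was at 26.3, 31.2 and 15.3 CPM (−0.87, SE 0.47). Calponin 2 (Cnn2), an actin-binding protein, was at 27.2, 29.1 and 13.6 CPM (−1.01, SE 0.41). For all 3, WT2 was the only library below pInv: it held 31.8, 12 and 13.2 CPM. Timp3, an inhibitor of matrix proteases, was at 13.4, 15.6 and 7.21 CPM and lowest in pInv. The matrix protein Sparc was at 186, 210 and 136 CPM, with WT1 lower at 120. Crip2, a LIM protein, lay above both at 33.4, 32.0 and 49.2 CPM.

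The position of WT2 runs through these lists. In the transition list WT2 was below pInv for 7 of the 8 genes that lay below both deletion libraries, and for 6 of them it was the only such library. In the mesenchymal effector list this was so for 10 of 16 and 9. Over all 3238 genes below both deletion libraries, WT2 was lower than pInv for 974 (30.1%). No gene of the transition list was lower in pInv than in all 6 others, and 2 of the mesenchymal effectors were. The part of the streak content of a library in these differences was not tested.

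Of the transcription factors of the transition, 14 of 18 (77.8%) lay below both deletion libraries and 2 above. Their median was −0.38 (−0.19 against pKO1 and −0.41 against pKO2). WT2 was lower than pInv for 9 of the 14 (64.3%), against 30.1% of all genes below both. For 4 of the 14 no other library was lower than pInv. Msx1, a homeobox factor downstream of BMP, was at 33.9 CPM in pKO1, 57.0 in pKO2 and 22.9 in pInv. Gsc, a homeobox factor of the anterior streak, was at 42.0, 66.9 and 30.1 CPM. Zeb2, a repressor of Cdh1, was at 7.64, 5.74 and 3.82 CPM. Snai1 and Zeb1, of the same list, did not pass the low-count filter and did not share this position. Snai1 had 1 count in pKO1, 2 in pKO2 and 5 in pInv, and Zeb1 had 2 in each. Tead1, the DNA-binding partner of YAP, was at 26.8, 21.3 and 16.1 CPM. Sox11 was at 560 CPM in pKO1, 671 in pKO2 and 456 in pInv, and it was lowest in pInv of all 7. Sox4, a relative, was at 201, 202 and 174 CPM with WT2 at 91.8.

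Matrix genes gave 14 of 37 (37.8%) below, 9 above and a median of −0.10, which was 0.019 without pKO1 and −0.20 without pKO2. Fbn2, a fibrillin of embryonic microfibrils, had 3 counts in pInv, the count floor, at 1.27 CPM against 4.30 in pKO1 and 12.7 in pKO2. The glypican Gpc3 was at 22.0, 22.6 and 11 CPM and lowest in pInv. The laminin chain Lamb2 lay above both at 3.34, 3.28 and 7.21 CPM, the highest of the 7.

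Guidance molecules, which steer cells by attraction and repulsion, had 15 of 37 (40.5%) below, 5 above and a median of −0.32, which was −0.17 without pKO1 and −0.29 without pKO2. The ephrins Efnb1 and Efnb3, ligands of Eph receptors, were at 3.82, 6.57 and 0.849 CPM and at 6.21, 5.33 and 0.849 CPM, each lowest in pInv. The pInv value is 2 counts for both and lies under the floor. Sema6d was at 4.78 CPM in pKO1, 6.57 in pKO2 and 0.424 in pInv, with 0 in WT2. Its pInv value is 1 count and also lies under the floor. Plxna2, a semaphorin receptor, was at 18.2, 30.8 and 9.34 CPM, and Flrt3, an adhesion protein of the streak, at 11.9, 10.7 and 5.09. Slit2, a Robo ligand, was at 10.5, 16.0 and 5.09 CPM. In these last 3 WT2 was the only library below pInv.

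**Figure D3:**
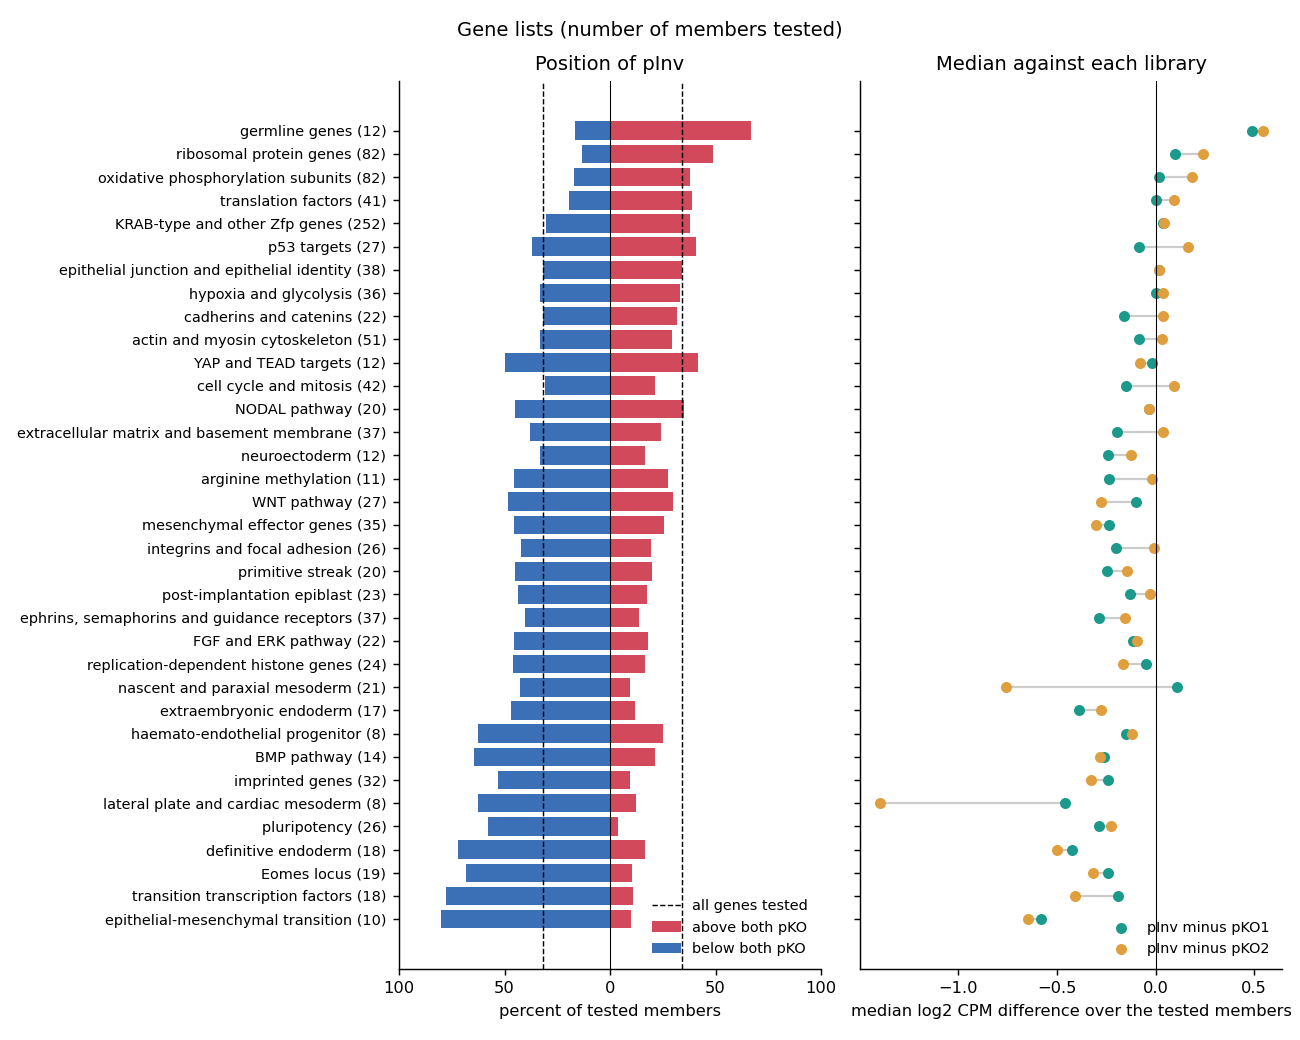
Left, percent of tested members of each gene list (number in brackets) in which pInv lay above (red) or below (blue) both pKO libraries, with dashed lines at the 34.2% and 31.5% of all genes; right, the median log2 CPM difference of pInv from pKO1 and from pKO2. The transition lists, definitive endoderm, pluripotency and the Eomes locus lie mostly below. Ribosomal protein genes lie above more often than below, and the germline genes that passed the low-count filter mostly above.

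Among the genes at 20 CPM or more, Cer1 and Cfc1 lay farthest below both deletion libraries, both parts of NODAL signalling. The promoters of these and of Cyp26a1, another of the 12 farthest below at that level, are shown because these genes of embryo patterning stood low together. They come from RefSeq, build GRCm38.p6, a later build than that of the counts, as 250 bases before and 50 after the gene start, 5′ to 3′ on the gene's strand. Cer1 lies at chr4:82885102-82885401 (minus strand), Cfc1 at chr1:34535398-34535697 (plus) and Cyp26a1 at chr19:37697558-37697857 (plus). Capitals mark TAAT, the core bound by many homeodomain proteins, on either strand (ATTA on the other), overlapping matches included.
Cer1: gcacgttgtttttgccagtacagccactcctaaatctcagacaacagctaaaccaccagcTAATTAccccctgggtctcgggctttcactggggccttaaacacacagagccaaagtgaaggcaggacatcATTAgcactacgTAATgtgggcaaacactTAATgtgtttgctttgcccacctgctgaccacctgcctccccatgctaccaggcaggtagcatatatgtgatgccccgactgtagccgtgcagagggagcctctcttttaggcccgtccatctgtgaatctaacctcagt
Cfc1: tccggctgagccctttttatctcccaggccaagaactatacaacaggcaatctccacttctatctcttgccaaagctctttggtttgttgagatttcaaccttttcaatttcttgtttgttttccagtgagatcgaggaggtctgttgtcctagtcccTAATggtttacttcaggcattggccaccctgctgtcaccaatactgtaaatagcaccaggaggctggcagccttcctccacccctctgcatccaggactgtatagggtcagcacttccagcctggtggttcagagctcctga
Cyp26a1: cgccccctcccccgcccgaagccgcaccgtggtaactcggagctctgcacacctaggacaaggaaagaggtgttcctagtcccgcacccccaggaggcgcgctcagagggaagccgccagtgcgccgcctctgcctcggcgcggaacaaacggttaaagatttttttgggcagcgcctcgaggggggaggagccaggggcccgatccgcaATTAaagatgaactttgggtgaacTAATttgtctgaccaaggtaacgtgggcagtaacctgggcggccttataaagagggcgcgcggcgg
The Cer1 window held 5 matches, Cyp26a1 2 and Cfc1 1. Of 32851 promoter windows examined in the table, with 1 chromosome left out, 58.0% held at least 1, 34.1% at least 2 and 6.86% at least 5. Cer1 also held 2 copies of CACCTG, the E-box read by Snail and Zeb repressors, as did 2.88% of windows. A match is a description of letters and no binding site.

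Cerberus (Cer1, NCBI gene 12622), a secreted inhibitor of NODAL, BMP and WNT made by anterior endoderm, was at 57.8 CPM in pKO1, 98.9 in pKO2 and 13.6 in pInv. The other libraries held 58.8 in WT1, 5.40 in WT2, 58.9 in Ctrl and 63.7 in KD. pInv was 4.05-fold below the nearer deletion library, and WT2 was the only library lower. The log2 difference was −2.45 (SE 1.08), with an unadjusted p of 0.0539 and an adjusted p (edgeR, Benjamini-Hochberg) of 1. Without a filter on low counts the same test gave it an adjusted p of 0.0031.

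Cryptic (Cfc1, NCBI gene 12627), a co-receptor for NODAL, was at 16.7 CPM in pKO1, 58.3 in pKO2 and 3.82 in pInv, which rests on 9 counts. It was at 28.1 CPM in WT1, 3.60 in WT2, 20.3 in Ctrl and 56.3 in KD, so again pInv and WT2 lay far under the other 5. The log2 difference was −3.03 (SE 1.17), with an adjusted p (edgeR, Benjamini-Hochberg) of 1, and of 0.000925 without the low-count filter. Cyp26a1, which breaks down retinoic acid, was at 24.4, 25.9 and 9.76 CPM, with WT2 at 4.20 and the other 3 at 22.1 to 50.3.

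NODAL signalling as a list did not share the low level of Cer1 and Cfc1. Of 20 tested genes, 9 lay below both deletion libraries, 7 above, and the median was −0.07. The ligand Nodal was highest in pInv at 99.3 CPM, against 75.5 in pKO1 and 71.0 in pKO2, and WT2 was next at 96.6. The receptor Acvr2b was at 231, 254 and 199 CPM. The signal transducer Smad3 was at 11.9, 9.85 and 7.64 CPM and lowest in pInv.

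Streak genes split by gene. Of 20 tested, 9 lay below both deletion libraries and 4 above, with a median of −0.10 that was −0.17 without pKO1 and −0.25 without pKO2. Lhx1, a LIM homeobox factor of the streak and its endoderm, was at 521 CPM in pKO1, 884 in pKO2 and 258 in pInv. It was at 531.5 CPM in WT1, 58.2 in WT2, 492 in Ctrl and 1138 in KD. Sp5, a direct target of WNT signalling, was at 79.3, 134 and 49.2 CPM with WT2 at 31.8. The WNT ligand Wnt8a lay above both at 40.1, 40.2 and 60.3 CPM, with WT2 higher at 87.6. Upp1, uridine phosphorylase, was at 441, 625 and 294 CPM, the lowest of the 7 (log2 difference −0.86, SE 0.36).

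Definitive endoderm genes lay below in 13 of 18 (72.2%) and above in 3, with a median of −0.39 that was −0.42 against pKO1 and −0.50 against pKO2. Gata6, a factor of endoderm and cardiac mesoderm, was at 8.12 CPM in pKO1, 10.7 in pKO2 and 1.70 in pInv. Hhex, a homeobox factor of anterior endoderm, was at 5.26, 12.7 and 2.55 CPM. Prdm1 was at 10.0, 13.5 and 5.09 CPM, and the chemokine receptor Cxcr4 at 9.55, 9.03 and 4.67. WT2 was lower than pInv in Gata6, Prdm1 and Cxcr4, and in 9 of the 13 members it was the only library lower. Extraembryonic endoderm genes were below in 8 of 17 (47.1%), among them Dab2 at 8.12, 8.21 and 5.09 CPM, while the lipoprotein Apoe lay above both at 63.1, 47.2 and 73.0.

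**Figure D4:**
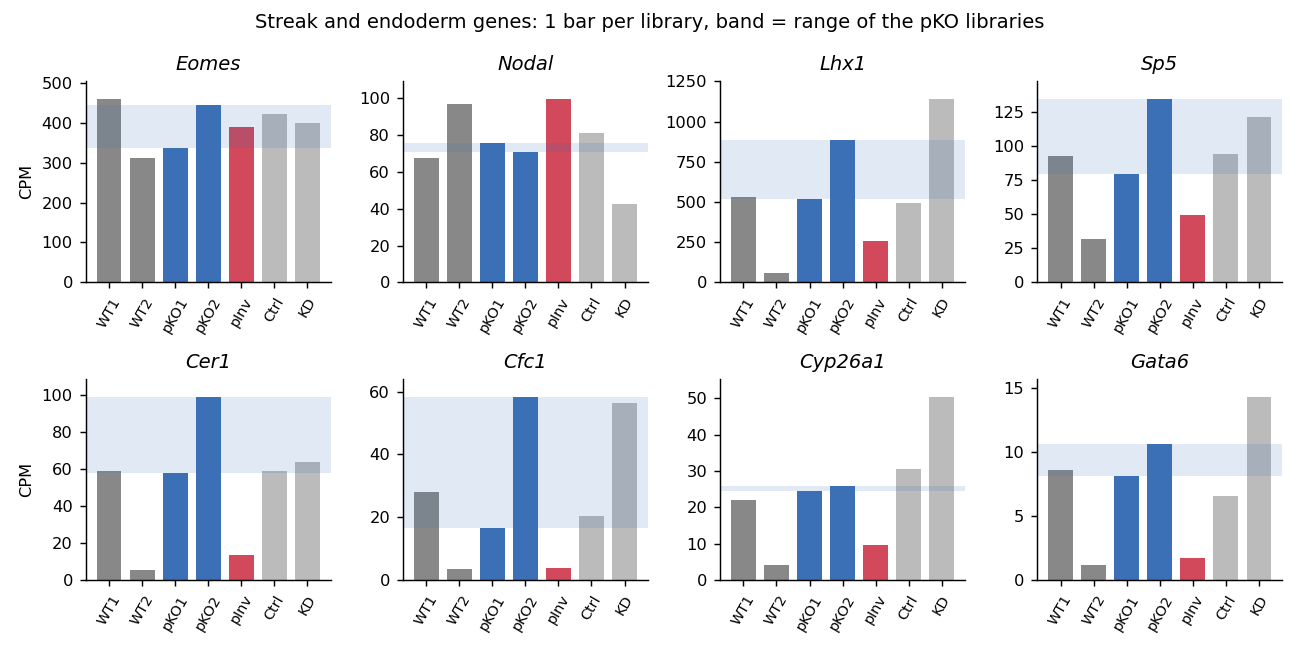
CPM of 8 streak and endoderm genes, 1 bar per library, with no error bars because each bar is 1 library; the blue band spans pKO1 to pKO2. Eomes in pInv lies within the band and Nodal above it, whereas Lhx1, Sp5, Cer1, Cfc1, Cyp26a1 and Gata6 lie below it, with WT2 the only library lower.

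Mesoderm lists depended on the deletion library. Nascent and paraxial mesoderm had 9 of 21 (42.9%) below and 2 above, with a median of −0.49 that was 0.11 against pKO1 and −0.76 against pKO2, so its direction turned. Lateral plate and cardiac mesoderm, 5 of 8 below, had a median of −1.02, which was −0.46 against pKO1 and −1.40 against pKO2, and −0.32 without the low-count filter. Among single genes, Aplnr, the apelin receptor of early mesoderm, was at 5.26, 7.39 and 2.55 CPM, and its ligand Apln at 30.6, 36.5 and 21.6. Kdr, the VEGF receptor of blood and vessel progenitors, was at 20.5, 39.8 and 10.6 CPM, and its relative Flt1 at 26.8, 34.9 and 17.0. WT2 was lower than pInv in each of these.

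BMP pathway genes were below in 9 of 14 (64.3%) and above in 3, with a median of −0.37, and WT2 was below pInv in all 9. Tbx3, a T-box factor induced by BMP, was at 6.21, 6.57 and 1.27 CPM, the last being 3 counts, the count floor. The ligands Bmp2 and Bmp7 were at 4.30, 9.03 and 2.55 CPM and at 6.69, 14.0 and 4.67 CPM. WNT pathway genes were below in 13 of 27 (48.1%) and above in 8, with a median of −0.14 that was −0.30 without pKO1. Lgr5, an R-spondin receptor and WNT target, was at 5.26, 8.62 and 1.70 CPM, and Fzd8, a WNT receptor, at 8.12, 11.5 and 3.40. Both were lowest in pInv. Notum, an enzyme that inactivates WNT, lay above both at 5.73, 6.98 and 13.2 CPM, but WT1 (16.9) and WT2 (13.8) were higher than pInv.

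FGF and ERK pathway genes were below in 10 of 22 (45.5%), with a median of −0.20 (−0.12 without either pKO library). The ERK phosphatase Dusp5, which ERK signalling induces, was at 15.3 CPM in pKO1, 13.5 in pKO2 and 4.67 in pInv, against 11.2 to 20.3 in the other 4 (log2 difference −1.46, SE 0.49). The ETS factor Etv5, another FGF target, lay on the opposite side at 218, 183 and 320 CPM, the highest of the 7.

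Pluripotency genes were below in 15 of 26 (57.7%) and above in 1, with a median of −0.24 (−0.29 against pKO1 and −0.22 against pKO2). This list too was known to be low from earlier work on these files. The members farthest below were factors of the naive state: Klf2 at 4.78, 5.33 and 1.70 CPM, Klf4 at 4.30, 12.7 and 2.55, Tfcp2l1 at 6.21, 7.80 and 2.55, and Zfp42 at 13.9, 17.6 and 8.06. All were weakly expressed, and the sum of the list was nearly the same in the 3 libraries, at 3309 CPM in pKO1, 3372 in pKO2 and 3412 in pInv. WT2 was under pInv for 6 of the 15 (40.0%), against 30.1% of all genes below both deletion libraries. Epiblast genes were below in 10 of 23 (43.5%), with Pou3f1 at 80.7, 80.8 and 51.8 CPM, while the pluripotency RNA-binding protein Lin28b lay above both at 34.4, 30.0 and 57.3, the highest of the 7. Neuroectoderm genes were below in 4 of 12 (33.3%) and above in 2 (16.7%), against 31.5% and 34.2% of all genes.

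Imprinted genes, which are expressed from 1 parental allele, were below in 17 of 32 (53.1%) and above in 3, with a median of −0.21 that was −0.35 without pKO1. Igf2r, the receptor that clears the growth factor Igf2, was at 18.2 CPM in pKO1, 20.1 in pKO2 and 6.79 in pInv. The other 4 libraries held 12 to 25.9, and the log2 difference was −1.38 (SE 0.47). Peg3 was at 137, 181 and 91.2 CPM with WT2 at 49.2. Grb10, an adaptor that restrains growth, was at 20.1, 24.6 and 9.34 CPM with WT2 at 2.40. Tssc4 lay above both at 42.5, 45.1 and 73.8 CPM, and above all 6.

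Genes around Eomes were below in 13 of 19 (68.4%) and above in 2, with a median of −0.28 (−0.24 against pKO1 and −0.32 against pKO2). The list holds Eomes and its neighbours in the gene order of the reference. Slc22a13, a transporter of organic anions, was farthest below at 5.26 CPM in pKO1, 5.33 in pKO2 and 2.12 in pInv, which rests on 5 counts, with KD lower at 1.39. Azi2, an adaptor of innate immune signalling, was at 22.9 CPM in pKO1, 24.6 in pKO2 and 15.3 in pInv, and the kinase Oxsr1 at 23.4, 25.4 and 18.7. Exog, a mitochondrial nuclease, was at 6.69, 8.62 and 3.82 CPM. Ctdspl, a phosphatase, lay above both at 28.7, 28.7 and 40.3 CPM, and WT2 (38.4) was next. Of the 13 genes below, 5 were below all 6 others, a share like that over all genes (1288 of 3238).

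Ribosomal protein genes stood higher in pInv more often than lower. Of 82 tested, 40 (48.8%) lay above both deletion libraries and 11 (13.4%) below. Among genes at 20 CPM or more these shares were 38.9% and 29.9%. Of the 40, 23 were above all 6 others, against 1417 of 3509 over all genes and 902 of 1915 at 20 CPM or more. They summed to 118970 CPM in pKO1, 114910 in pKO2 and 140390 in pInv, against 117190 to 124870 in the other 4. The median was 0.16 (0.10 against pKO1 and 0.24 against pKO2), so shifts of single genes were slight. Rps12 was at 7010 CPM in pKO1, 6011 in pKO2 and 10534 in pInv. Rplp2, of the ribosomal stalk, was at 3127, 2272 and 4570.0 CPM, and Rpsa, which is also a laminin receptor, at 2254, 2222 and 3128. The share of the 45S precursor was lowest in pInv of the 7 libraries. With that row left out of the library sizes the median of the ribosomal protein genes was 0.13.

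Translation factors gave 16 of 41 (39.0%) above and 8 (19.5%) below. Subunits of oxidative phosphorylation gave 31 of 82 (37.8%) above and 14 (17.1%) below. The shares above both were near the 34.2% of all genes and the 38.9% of genes at 20 CPM or more. The shares below both were under the 31.5% and 29.9% of the same sets. Atp5l, a subunit of ATP synthase, was at 609 CPM in pKO1, 500 in pKO2 and 1065 in pInv, where the other 4 held 436 to 601 (log2 difference 0.94, SE 0.34). The complex I subunit Ndufb8 was at 306, 315 and 493 CPM, also the highest of the 7. Cox4i2, a subunit used in low oxygen, had 0 counts in pInv against 12 in pKO1 and 14 in pKO2. Taking the floor of 3 counts, 1.27 CPM, as the most that pInv could hold, this is at least 4.51-fold lower than the pKO mean of 5.74 CPM.

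Hypoxia and glycolysis genes were even, 12 of 36 above and 12 below. Gapdh was at 936 CPM in pKO1, 1055 in pKO2 and 1827 in pInv, the highest of the 7 (log2 difference 0.88, SE 0.30). The enolase Eno1b was at 126, 145 and 69.2 CPM and the lowest of the 7, so 2 glycolytic enzymes stood on opposite sides; Eno1b shares nearly all of its sequence with Eno1, and its count is uncertain. Targets of p53 were even as well, 11 of 27 above and 10 below. Mdm2, the ligase that restrains p53, was at 88.9, 62.4 and 137 CPM and Bax, a pro-apoptotic gene, at 11, 9.85 and 18.2, both highest in pInv, whereas the pro-apoptotic Pmaip1 was low at 7.17, 7.39 and 2.55.

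Germline genes had a median of 0.66, with 8 of 12 above (66.7%) and 2 below. Most were near the floor. Tex15, a gene of male meiosis, was at 21.5 CPM in pKO1, 20.5 in pKO2 and 32.7 in pInv, the highest of the 7. Sycp3, of the meiotic chromosome axis, was at 2.87, 3.69 and 5.94 CPM. Only 12 of 41 matched germline genes passed the low-count filter, so genes that passed through 1 high library are favoured. Without the filter the median was 0.04.

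Cell cycle genes were above in 9 of 42 and below in 13 (31.0%). Ccne2, a cyclin of S phase entry, was at 14.3, 12.7 and 25.9 CPM and highest in pInv, as was the replication helicase subunit Mcm5 at 201, 197 and 298. The spindle checkpoint kinase Bub1b was lowest in pInv at 9.34 CPM against 17.7 and 21.3. Histone genes were below in 11 of 24 (45.8%) and above in 4. The YAP and TEAD targets were below in 6 of 12 and above in 5, and the zinc finger genes below in 77 of 252 (30.6%) and above in 96 (38.1%). Zfp980, of the last list, had 0 counts in pInv, 21 in pKO1 and 38 in pKO2.

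**Figure D5:**
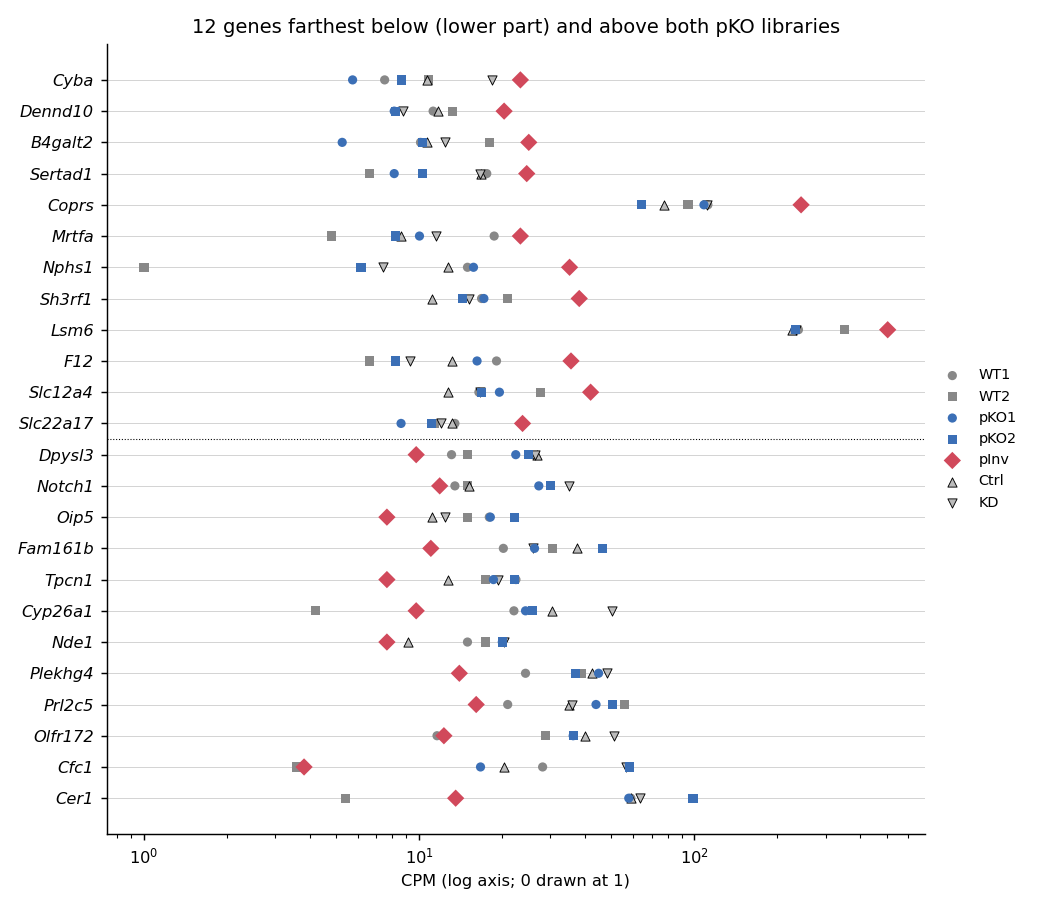
CPM on a log axis of the 12 genes farthest below (lower part) and the 12 farthest above (upper part) both pKO libraries at 20 CPM or more, 1 point per library, a value of 0 drawn at 1. The pInv diamond lies right of all other points for the upper 12, and for Cer1, Cfc1, Cyp26a1 and Olfr172 another library lies further left.

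Of the 12 genes farthest above at 20 CPM or more, Coprs had the smallest p. It encodes a cofactor of the arginine methyltransferase Prmt5 and was at 108 CPM in pKO1, 64.4 in pKO2 and 244 in pInv, with the other 4 at 77.7 to 112. Prmt5 itself was at 151, 191 and 201 CPM, and of 11 genes of arginine methylation 3 lay above and 5 below. Lsm6, of the spliceosomal Lsm ring, was at 232 CPM in pKO1, 234 in pKO2 and 505 in pInv, with WT2 next at 351. Its log2 difference of 1.11 (SE 0.34) had an unadjusted p of 0.0112 and an adjusted p (edgeR, Benjamini-Hochberg) of 1. Cyba, a subunit of NADPH oxidase, was at 5.73, 8.62 and 23.3 CPM, with KD at 18.5. Mrtfa, a co-activator that responds to free actin, was at 10.0, 8.21 and 23.3 CPM, with WT1 at 18.7. The galactosyltransferase B4galt2 was at 5.26, 10.3 and 25.0 CPM and the potassium-chloride transporter Slc12a4 at 19.6, 16.8 and 42.0. Nphs1, the kidney adhesion protein nephrin, was at 15.8, 6.16 and 35.2 CPM with 0 in WT2. Dennd10, Sertad1, Sh3rf1, F12 and Slc22a17 complete the 12, at 20.4 to 38.2 CPM in pInv.

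Of the 12 farthest below at that level, besides Cer1, Cfc1 and Cyp26a1, most were lowest in pInv among all 7 libraries. Notch1, the receptor of lateral signalling, was at 27.2 CPM in pKO1, 30.0 in pKO2 and 11.9 in pInv, with WT1 (13.5), WT2 (15) and Ctrl (15.2) nearby. Dpysl3, which regulates the cytoskeleton of migrating neurons, was at 22.5, 25.0 and 9.76 CPM. It was at 13.1 in WT1, 15 in WT2, 26.9 in Ctrl and 26.3 in KD, and Notch1 in KD was at 35.1. In both genes pInv lay closer to the WT libraries than to pKO, while KD, and for Dpysl3 also Ctrl, stood with the pKO libraries or above them. Nde1, of the centrosome and dynein, was at 20.1, 20.1 and 7.64 CPM with Ctrl at 9.14. Plekhg4 was at 44.9, 36.9 and 14.0 CPM, and the other 4 held 24.4 to 48.0. Oip5, of centromere assembly, was at 18.2, 22.2 and 7.64 CPM and the endolysosomal channel Tpcn1 at 18.6, 22.2 and 7.64. Fam161b, Prl2c5 and Olfr172 complete the 12, at 11 to 16.1 CPM in pInv; Prl2c5 and Olfr172 belong to families of near-identical genes, and their counts are uncertain. At the 2-fold edge, Lhx1 was just inside, 1.01 log2 units below the nearer deletion library, and Cnn2 just outside at 0.96 below. On the upper side Ddx28, an RNA helicase, was just inside at 1.01 above and Zfp821 just outside at 0.98.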

How the data were processed

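Lexogen QuantSeq libraries, which read transcripts from their 3′ end, were made from TRI reagent RNA, per the labels' protocols. The authors deposited FPKM, TPM and RSEM's expected counts for each library, per the file headers; the submitters' processing notes name the build mm9. Strand and trimming: not given in the sources used here. Expected counts, deposited without normalization, were rounded to whole numbers. The TPM values deposited by the authors, scaled to length and a fixed total, served as an alternative, and the deposited FPKM values were not used. The RefSeq table of GRCm38.p6, used for names and promoter sequences, named 23447 of the 24990 features as 1 gene, 375 as several merged genes and 1132 as additional copies, and 36 had no name in it.

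Counts were fitted with edgeR 4.0.16 (R 4.3.3): filterByExpr by group, TMM, and 1 quasi-likelihood fit over all 7 libraries with a coefficient per title and no covariate (prior degrees of freedom 5.86, common biological coefficient of variation 0.294). Position was read on log2 CPM with a prior count of 2, as the distance of pInv beyond the nearer pKO library. DESeq2 1.42.0 and limma 3.58.1 were alternatives. The fit and the position rule were tested on simulated data. The members, the 39 gene lists and the named genes were chosen with earlier results of these data known. The text names Eomes, the 12 genes each way farthest beyond both pKO libraries at 20 CPM or more, up to 6 members per list farthest beyond both at 5 CPM or more, and Cdh1, Cdh2, Epcam, Vim and Fn1. Prmt5, Zfp821, Ddx28, Fap, Snai1, Zeb1 and the macrophage genes were chosen after their values were seen. No molecular identifiers are named, so floors cover counting error only.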

Additional observations from a re-analysis of the deposited data

How the results depend on the processing

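The number of genes called was 0 in the main analysis and under every other alternative except 3: without the low-count filter it was 8, and with a pKO library left out it ranged from 2 to 7. The 8 hold Cer1, Cfc1 and Zfp980 (all lower in pInv), and those called without a pKO library were mostly copies of Rn4.5s, a repeated small RNA whose reads are split between near-identical rows. The counts of genes 2-fold or more beyond both pKO libraries, 16 above and 20 below, were 52 to 211 and 46 to 119 with a pKO library left out. They were 5 and 3 at a minimum of 50 CPM, 32 and 51 at 10 CPM, and 180 and 111 at 1.5-fold. With groups from the genotype field (pKO1 against WT1 and WT2) the lower count was 12. DESeq2 size factors, leaving out the 45S row, TPM and a prior count of 0.5 kept both counts within 1.5 times, as did leaving out WT2 (13 and 22), an alternative chosen after seeing the data. Eomes was at −0.21 without pKO1 and changed sign without pKO2 (0.21). Tfap2c, at 0.02 in the main analysis, changed sign without the 45S row (−0.0059), without the filter (−0.0017), without pKO1 (−0.023; 0.031 without pKO2), without WT2 (−0.0062) and with TPM (−0.044). Scaling moved the median of all genes by −0.013 (DESeq2 size factors) to −0.062 (TPM). List medians that changed sign were those of the cadherin, actin, matrix, cell cycle, p53 and hypoxia lists without pKO1, those of nascent mesoderm (0.10), epithelial junction (0.061), hypoxia (0.00058) and translation factors (−0.0006) without pKO2, and that of the zinc finger genes with TPM (−0.014). The cause was not tested. No paired analysis was possible because the title of pInv carries no replicate number, so no block joins it to a pKO library. At these depths genes under about 5 CPM rest on a few counts in pInv.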
